A study of Mus musculus with 12 samples.

Results

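The KMT2 and SETD1 methyltransferases and the subunits they work with were followed at the mRNA level in BV2 cells, an immortalised mouse microglial line. The 10 members were taken by symbol from the deposited tables: the enzymes Kmt2a, Kmt2b, Kmt2c, Kmt2d, Setd1a and Setd1b, the coactivator Ncoa6, and the shared subunits Wdr5, Ash2l and Rbbp5. They are 10 of 22935 listed genes, and all 10 were among the 14146 genes that passed the filter on low counts. The family was chosen by the lower Kmt2d and Kmt2a counts seen with C3a than with oxy-Hb alone, so values of that comparison describe the genes and support nothing further.

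All cells analysed here received 10 µM oxy-Hb, the oxygenated haemoglobin that red cells release after a bleed. There were 3 libraries of oxy-Hb with C3a, 3 of oxy-Hb with C3aRA at 50 µM, and 3 of oxy-Hb alone. C3a is the complement fragment that binds the receptor C3aR; its labelled dose of 20 ug/ul would be very high for a peptide, so the unit is uncertain, and the labels do not spell out C3aRA. The 3 PBS samples were not analysed here, so the effect of oxy-Hb itself was not measured; 1 cell line was used, and separate cultures are not named for the replicates.

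KMT2 and SETD1 proteins place methyl groups on lysine 4 of histone H3, a mark of active promoters and enhancers. Each enzyme works inside a COMPASS-type complex built on a common core of WDR5, RBBP5, ASH2L and DPY30, without which the catalytic SET domain has little activity. SETD1A and SETD1B account for much promoter trimethylation, KMT2A and KMT2B act at selected promoters together with menin, and KMT2C and KMT2D, joined by NCOA6, monomethylate enhancers. In macrophages and microglia such enhancer marks accompany the genes induced by inflammatory stimuli. The enzymes are very large proteins with long mRNAs, while the core subunits are small.

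Total counts ran from 12934794 to 20479002 per library, so that 3 counts, the limit that a count of 0 allows, came to between 0.146 and 0.232 CPM, the unit of counts scaled to a common library total, by counting error alone. All 12 microglial markers averaged above 1 CPM, among them Cd68 (949 CPM with C3a, 898 with C3aRA, 878 with oxy-Hb alone), while the homeostatic markers P2ry12 and Tmem119 lay between 1.30 and 2.65 CPM. Of the markers of other cells, 1 of 4 for astrocytes, 1 of 4 for neurons, 2 of 4 for red cells and 1 of 6 for endothelial cells or fibroblasts were in the tables, and each of these sums was at most 1.65 CPM in any library. The 2 of 5 oligodendrocyte markers in the tables summed to between 8.12 and 10.1 CPM with C3a, 8.66 and 11.4 CPM with C3aRA, and 11.5 and 12.04 CPM with oxy-Hb alone. The second C3a library stood apart, at -76.3 on the first principal component where the remaining 8 libraries spread over -10.8 to 23.8. Only 4.64% of its counts fell on genes whose longest transcript is 8 kb or more, against 7.43% to 7.45% in the other C3a libraries, 7.65% to 7.84% with C3aRA and 7.80% to 8.35% with oxy-Hb alone. Fold changes with C3a that moved by over 1.5 times without it, or changed sign or call, are also given without it.

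The members differ in length and position. In GRCm38 the annotated exons of Kmt2d span 19.9 kb in all (ENSMUSG00000048154, chromosome 15, 98831669 to 98871204), those of Kmt2a 16.7 kb (ENSMUSG00000002028, chromosome 9, 44803355 to 44881296) and those of Kmt2c 20.3 kb (ENSMUSG00000038056, chromosome 5, 25271798 to 25498783). Setd1b (12.1 kb), Ncoa6 (9.74 kb), Kmt2b (9.60 kb) and Setd1a (6.795 kb) follow. Wdr5 has 3.60 kb (ENSMUSG00000026917, chromosome 2, 27515157 to 27536535) and Rbbp5 3.93 kb. Ash2l has 8.97 kb of annotated exons, but its longest transcript is 3702 bases. Of the Setd1a exon sequence 51.8% is shared with Gm49388, an overlapping gene model on the same strand that has no count of its own here, so Setd1a counts are uncertain. Overlaps with antisense or unclassified models covered 2.27% of Kmt2a and 1.35% of Kmt2c exons. The strand setting is not given, so whether reads of both strands were told apart there is unknown.

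Promoter sequences from 250 bases before to 50 bases after the start were found in RefSeq (GRCm38.p6) for 7 of the 10 members. The Ncoa6 window, chr2:155440734-155441033, lies inside the gene and away from its annotated 5′ end at 155473894, and is left out of the motif counts. The Setd1a window, chr7:127777139-127777438, also lies inside the gene, past its annotated 5′ end at 127776670. It is kept in the counts, which may not describe the sequence at that end. Those of Kmt2a and Kmt2d, the members with the largest differences, and of Wdr5, a subunit with nearly level counts, are shown side by side. They are written 5′ to 3′ along the gene's strand, with matches to the motifs searched in capitals.
Kmt2a, chr9:44881240-44881539, minus strand: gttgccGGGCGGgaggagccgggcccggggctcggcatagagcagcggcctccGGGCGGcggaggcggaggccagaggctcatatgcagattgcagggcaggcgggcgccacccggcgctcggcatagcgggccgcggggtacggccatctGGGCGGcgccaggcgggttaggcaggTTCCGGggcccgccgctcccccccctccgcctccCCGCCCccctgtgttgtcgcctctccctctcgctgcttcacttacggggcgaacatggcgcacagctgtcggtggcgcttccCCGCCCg
Kmt2d, chr15:98871156-98871455, minus strand: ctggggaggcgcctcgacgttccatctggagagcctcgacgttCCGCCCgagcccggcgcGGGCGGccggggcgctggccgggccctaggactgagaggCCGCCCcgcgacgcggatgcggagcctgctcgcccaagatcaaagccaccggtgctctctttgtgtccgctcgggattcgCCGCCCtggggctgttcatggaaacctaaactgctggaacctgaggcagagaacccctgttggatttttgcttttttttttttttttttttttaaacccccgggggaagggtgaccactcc
Wdr5, chr2:27514897-27515196, plus strand: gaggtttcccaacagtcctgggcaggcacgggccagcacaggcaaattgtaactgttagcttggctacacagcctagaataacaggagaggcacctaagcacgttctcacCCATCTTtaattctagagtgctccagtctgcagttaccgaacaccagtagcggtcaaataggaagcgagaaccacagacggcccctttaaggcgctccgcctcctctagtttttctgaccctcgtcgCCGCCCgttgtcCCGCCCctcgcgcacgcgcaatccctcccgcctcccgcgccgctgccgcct
The motifs, searched on both strands with overlapping matches counted separately, were the GC box GGGCGG, the CCAAT box CCAAT, an ETS core CCGGAA, an NRF1 core GCGCATGC and a YY1 core AAGATGG. The GC box had 5 matches in the Kmt2a window, 4 in that of Kmt2d, 12 in that of Kmt2c and 2 in that of Wdr5, and none in those of Setd1a and Rbbp5; it is present in 35.7% of all 32851 promoter windows. The ETS core matched once in Kmt2a (14.9% of all windows hold it) and the YY1 core once in Wdr5 and once in Setd1a (6.34%). The CCAAT box (37.4%) and the NRF1 core (2.71%) matched in none of the 6 windows. CG dinucleotides numbered 36 in Kmt2a, 27 in Kmt2d and 22 in Wdr5, against a median of 7 in all windows. GC boxes were thus present in the windows of both large enzymes and of the core subunit Wdr5.

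With C3a the 6 enzymes and Ncoa6 were lower than with oxy-Hb alone, and the 3 core subunits were nearly level. Kmt2d and Kmt2a had the largest differences, to about the same degree, and Ncoa6 the smallest among the long members. By the quasi-likelihood test of edgeR, with a gene called at a Benjamini-Hochberg adjusted p below 0.05, 4 of the 10 members were called, all lower: Kmt2a, Kmt2b, Kmt2d and Setd1b. Over all genes 3.94% were called and 3.04% were called lower; nothing is read from the members' count, since this comparison led to their choice. Without the second C3a library Kmt2c and Setd1a were called as well, 6 of 10 where 9.55% of all genes were, and with the C3a and oxy-Hb libraries alone Kmt2d was, 1 of 10 where 0.72% of all genes were. In these bulk libraries a lower level cannot be told apart from a change in the rest of the RNA or in the mixture of cells.

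Kmt2d, the enhancer methyltransferase, had 63.1, 35.98 and 73.3 CPM in the 3 C3a libraries, against 168, 157 and 152 CPM with oxy-Hb alone. Every C3a library lay below every oxy-Hb library, also with the second C3a library, the lowest, set aside. Its log2 fold change was -1.47 ± 0.20 (SE), and -1.23 ± 0.09 without that library. Kmt2a, the menin-bound enzyme first known from leukaemia translocations, had 66.2, 25.4 and 74.8 CPM with C3a, against 159, 138 and 144 CPM with oxy-Hb alone. Its groups did not overlap either, and the log2 fold change was -1.41 ± 0.29 (SE), or -1.07 ± 0.10 without the second C3a library.

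Kmt2b, the paralogue of Kmt2a, had 21.4, 12.86 and 23.7 CPM with C3a, against 38.9, 35.3 and 37.7 CPM with oxy-Hb alone, a log2 fold change of -0.95 ± 0.19 (SE), or -0.73 ± 0.14 without the second C3a library. Setd1b, at 7.94, 5.16 and 7.56 CPM with C3a and 15.0, 11.5 and 12.6 CPM with oxy-Hb alone, differed by -0.92 ± 0.20, and Setd1a, at 11.6, 6.30 and 12.5 CPM against 18.4, 18.4 and 16.8 CPM, by -0.82 ± 0.22. These 3 enzymes were thus lower in each C3a library than in any oxy-Hb library, on counts of 99 to 668 per library. Setd1b was at -0.75 ± 0.20 and Setd1a at -0.57 ± 0.18 without the second C3a library. Kmt2c, the closest relative of Kmt2d, had 76.9, 36.1 and 87.9 CPM with C3a, against 113, 97.3 and 118 CPM with oxy-Hb alone. It differed by -0.71 ± 0.24 (SE), and by -0.41 ± 0.10 without the second C3a library. Ncoa6, which brings nuclear receptors to the KMT2C and KMT2D complexes, had 62.1, 38.8 and 63.2 CPM with C3a and 77.5, 76.3 and 70.5 CPM with oxy-Hb alone (-0.45 ± 0.16, and -0.26 ± 0.10 without that library). In all, 7 of the 10 members had C3a libraries entirely below the oxy-Hb libraries, where 14.6% of all genes did.

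The core subunits kept close to their level with oxy-Hb alone. Wdr5, the scaffold that docks the enzyme, had 78.1, 70.4 and 82.0 CPM with C3a, against 70.1, 76.4 and 70.5 CPM with oxy-Hb alone. Ash2l, which helps to activate the SET domain, had 90.6, 99.8 and 86.5 CPM with C3a, against 92.8, 84.1 and 88.9 CPM with oxy-Hb alone. Rbbp5, the partner that contacts both ASH2L and the SET domain, had 68.8, 56.9 and 72.9 CPM with C3a, against 73.0, 64.1 and 79.5 CPM with oxy-Hb alone. All 3 pairs of groups overlapped, with log2 fold changes of 0.09 ± 0.11, 0.06 ± 0.10 and -0.12 ± 0.12 (SE), or 0.14, -0.0061 and -0.03 without the second C3a library. The median was 0.06 over the 3 subunits, -0.94 over the 6 enzymes and -0.77 over all 10 members, against 0.0016 over all genes tested. These medians were -0.0061, -0.74 and -0.49 with the second C3a library left out. With counts corrected for transcript length and GC content they were 0.07, -0.46 and -0.37, against 0.095 over all genes.

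**Figure D1:**
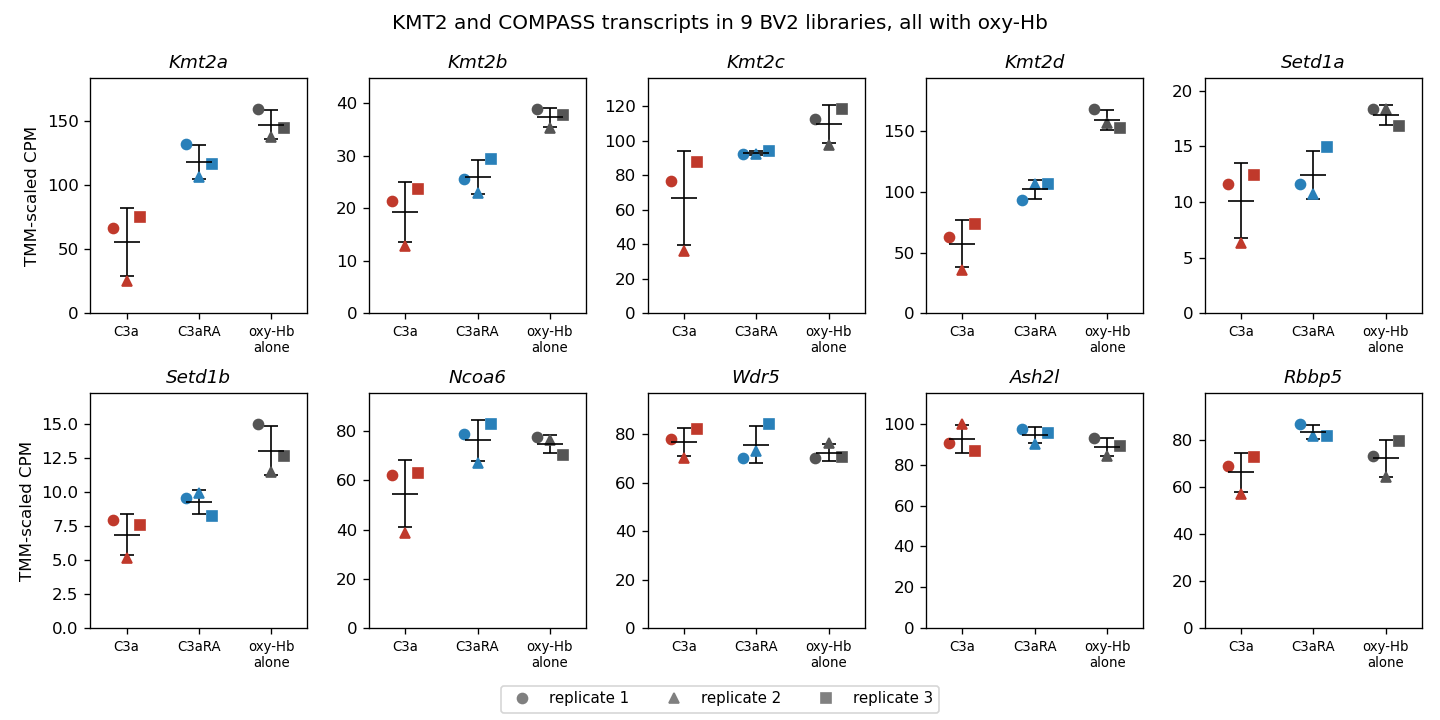
TMM-scaled CPM of the 10 members (vertical axes from 0) in the libraries of oxy-Hb with C3a, oxy-Hb with C3aRA and oxy-Hb alone; each point is a library, its shape the replicate number, and bars give the mean ± SD of 3 libraries. Kmt2d lies at 35.98 to 73.3 CPM with C3a, 93.4 to 107 with C3aRA and 152 to 168 with oxy-Hb alone, while Wdr5 stays between 70.1 and 84.2 CPM in all 9 libraries.

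A ratio of counts inside 1 library does not depend on how libraries are scaled, but it is not corrected for transcript length. The 7 long members together had 1.30, 0.707 and 1.42 times the counts of the 3 core subunits with C3a, 1.74, 1.70 and 1.73 times with C3aRA, and 2.501, 2.37 and 2.31 times with oxy-Hb alone. The 3 groups did not overlap, and the C3aRA libraries lay between the others. The count ratios, here and below, were chosen after values were seen. They hold Kmt2d or Kmt2a, whose lower counts with C3a led to the choice of the family, so they describe these genes only. How often ratios of other genes differ without overlap was not tested. The second C3a library, the lowest in this ratio, was also the lowest in counts on genes of 8 kb or more (4.64%). For Kmt2d over Wdr5 the ratios were 0.808, 0.511 and 0.894 with C3a, 1.33, 1.46 and 1.27 with C3aRA, and 2.40, 2.05 and 2.16 with oxy-Hb alone.

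The enzymes also shifted relative to each other. Kmt2a had 0.861, 0.703 and 0.851 times the counts of Kmt2c with C3a, 1.43, 1.147 and 1.23 times with C3aRA, and 1.41, 1.41 and 1.22 times with oxy-Hb alone. The C3a libraries thus lay below all others, and the C3aRA and oxy-Hb libraries overlapped. Kmt2d had 0.821, 0.997 and 0.835 times the counts of Kmt2c with C3a, 1.01, 1.151 and 1.13 times with C3aRA, and 1.49, 1.61 and 1.29 times with oxy-Hb alone, with no overlap between groups. The second C3a library, the lowest in the ratio of long to short members, was the highest of the C3a libraries in Kmt2d over Kmt2c.

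**Figure D2:**
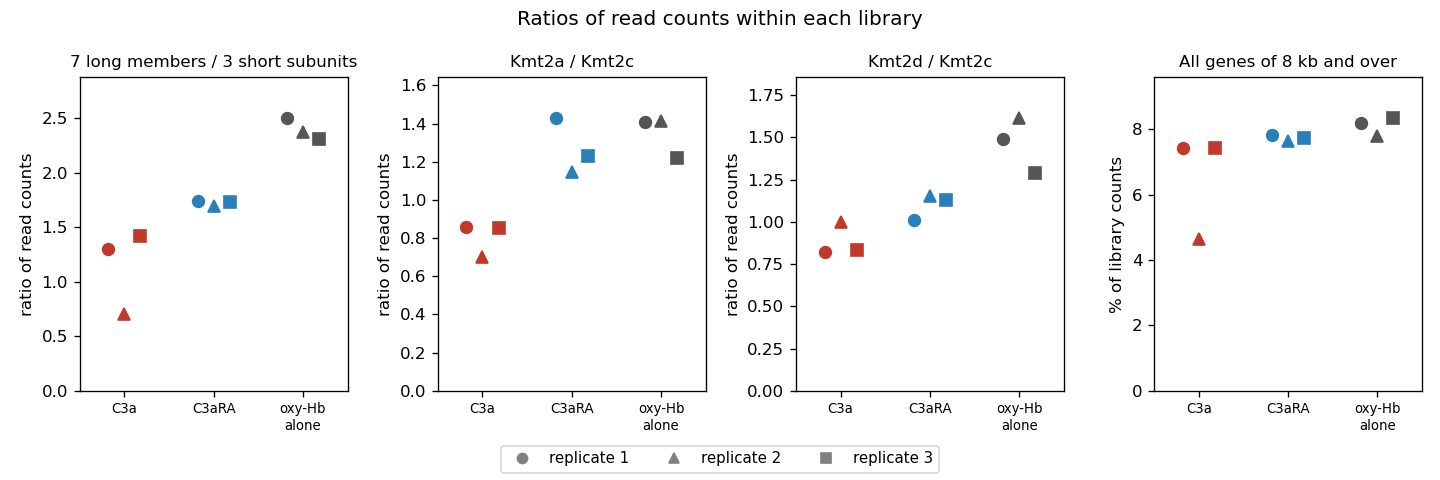
Ratios of raw read counts within each library (3 panels on the left) and, on the right, the percentage of all counts on genes whose longest transcript is 8 kb or more; each point is a library and all vertical axes start at 0. The ratio of long to short members is 0.707 to 1.42 with C3a, 1.70 to 1.74 with C3aRA and 2.31 to 2.501 with oxy-Hb alone, while the share of long genes is lowest, at 4.64%, in the second C3a library.

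Transcript length moved with the comparison of C3a and oxy-Hb across the whole table. With C3a against oxy-Hb the median log2 fold change was 0.13 over the 4285 genes whose longest transcript is under 2 kb, -0.17 over the 999 genes of 6 to 8 kb, -0.27 over the 503 genes of 8 to 12 kb and -0.43 over the 125 genes of 12 kb and over. Leaving out the second C3a library, these 4 medians were -0.0072, -0.04, -0.07 and -0.19, so most of the trend with length in the whole table rested on that library. Among the 125 longest genes Kmt2d had the 2nd lowest and Kmt2a the 3rd lowest fold change, while Kmt2c ranked 33. Kmt2b ranked 28 and Setd1b 35 of 503, Setd1a 60 and Ncoa6 231 of 999, and the core subunits 1781 (Rbbp5), 2846 (Ash2l) and 3025 (Wdr5) of the 5407 genes of 2 to 4 kb.

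When the trends of counts with transcript length and GC content were removed from each library, Kmt2a stood at -0.96 ± 0.14 (SE) and Kmt2d at -0.73 ± 0.10, so that Kmt2a had the larger difference. Both were called, 2 of 10 members where 7.05% of all genes were called after this correction. Of the calls over all genes 77.1% were lower before the correction and 32.8% after it. The median log2 fold change over all genes also moved, from 0.0016 to 0.095, and 9 of the 10 members lay below that corrected median. Kmt2b (-0.47 ± 0.15), Setd1a (-0.46 ± 0.19), Setd1b (-0.42 ± 0.18) and Kmt2c (-0.32 ± 0.11) were below 0 without a call, as was Ncoa6 (-0.23 ± 0.10). With the second C3a library also left out, Kmt2a was at -0.80 and Kmt2d at -0.70, again called. The correction takes out any real difference that follows length as well, and counts per gene do not show which part of a transcript lost reads, so the part of RNA quality in these differences was not tested.

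**Figure D3:**
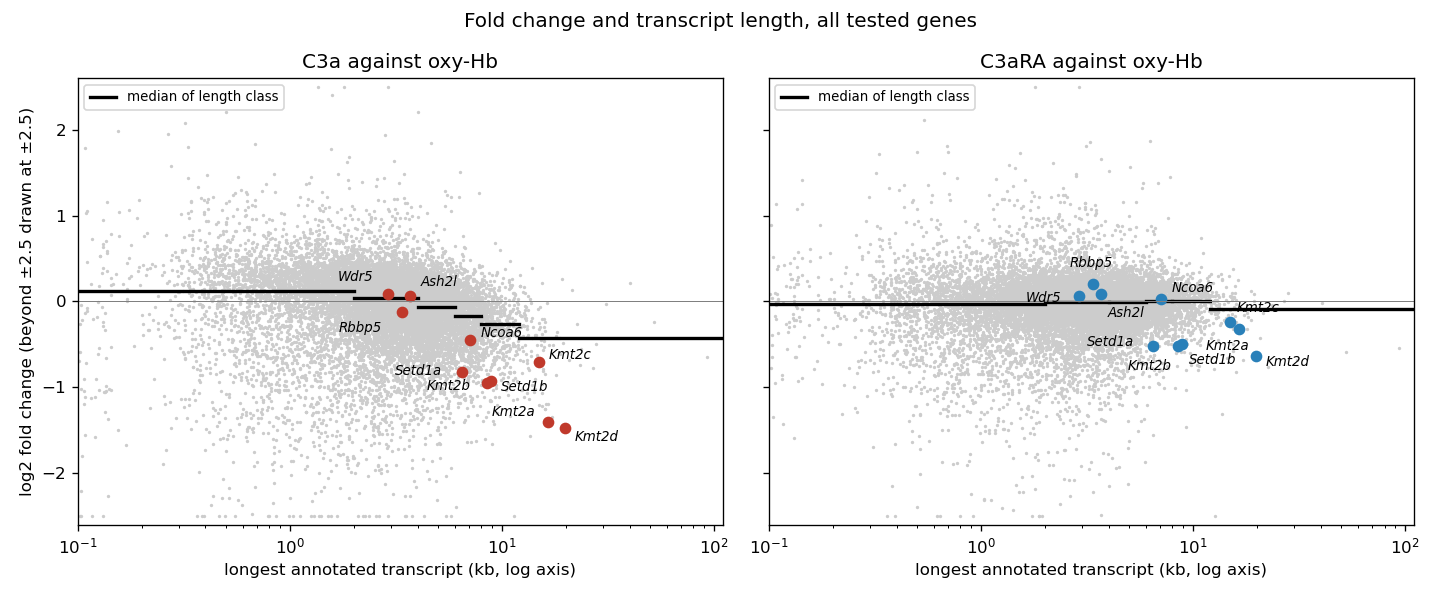
Log2 fold change (vertical) against the longest annotated transcript (kb, log axis from 0.1 kb) for the tested genes in grey and the 10 members in colour, for C3a against oxy-Hb on the left and C3aRA against oxy-Hb on the right; black lines are medians of length classes. Kmt2a (-1.41) and Kmt2d (-1.47) lie below the median of -0.43 of genes of 12 kb and over with C3a, and the enzymes Kmt2b, Kmt2d, Setd1a and Setd1b lie at -0.49 to -0.64 with C3aRA, where the medians of the length classes run from -0.09 to 0.01.

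With C3aRA the same 6 enzymes were again on the lower side of oxy-Hb alone, by smaller amounts, and Ncoa6 and the 3 core subunits were not. Kmt2d stood out with 93.4, 106 and 107 CPM with C3aRA, against 168, 157 and 152 CPM with oxy-Hb alone. The groups were well apart, and the log2 fold change was -0.64 ± 0.19 (SE), with an adjusted p of 0.479 in edgeR's test of the 9 libraries. No member was called in that fit, nor was any other gene (0% of 14146). An unadjusted p below 0.05 was reached by 4 members, Kmt2b, Kmt2d, Setd1a and Setd1b, and by 8.15% of all genes; DESeq2 called 11 genes and limma-voom 0, none of them members. This comparison uses the same oxy-Hb libraries as that of C3a, so a like direction in both is not independent.

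Kmt2b had 25.6, 22.9 and 29.3 CPM with C3aRA, against 38.9, 35.3 and 37.7 CPM with oxy-Hb alone (log2 fold change -0.52 ± 0.19, adjusted p = 0.504 in edgeR). Setd1a had 11.6, 10.8 and 14.9 CPM with C3aRA and 18.4, 18.4 and 16.8 CPM with oxy-Hb alone (-0.52 ± 0.22, adjusted p = 0.589 in edgeR), and Setd1b 9.59, 9.93 and 8.27 CPM against 15.0, 11.5 and 12.6 CPM (-0.49 ± 0.20, adjusted p = 0.565 in edgeR). In each of these 3 genes every C3aRA library was below every oxy-Hb library. Kmt2a, at 132, 106 and 116 CPM with C3aRA and 159, 138 and 144 CPM with oxy-Hb alone, differed by -0.32 ± 0.29, and Kmt2c, at 92.3, 92.4 and 94.3 CPM against 113, 97.3 and 118 CPM, by -0.24 ± 0.24 (adjusted p = 0.811 and 0.84 in edgeR). The libraries of all 6 enzymes thus did not overlap, and 11% of all genes were lower without overlap.

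Ncoa6 overlapped, with 78.9, 66.9 and 82.8 CPM with C3aRA and 77.5, 76.3 and 70.5 CPM with oxy-Hb alone (0.03 ± 0.16, adjusted p = 0.978 in edgeR). Wdr5 (70.2, 72.9 and 84.2 CPM with C3aRA) and Ash2l (97.4, 89.9 and 95.4 CPM) also overlapped their oxy-Hb values, at 0.07 ± 0.11 and 0.09 ± 0.10. Rbbp5, at 86.7, 81.7 and 81.6 CPM with C3aRA and 73.0, 64.1 and 79.5 CPM with oxy-Hb alone, was the 1 member higher without overlap (0.21 ± 0.12, adjusted p = 0.691 in edgeR; 11.9% of all genes were higher in this way). The median was -0.51 over the 6 enzymes, 0.09 over the 3 subunits and -0.28 over the 10 members, against -0.01 over all genes. Length moved little with this comparison, with class medians from -0.03 for genes under 2 kb to 0.01 for those of 8 to 12 kb and -0.09 for those of 12 kb and over. GC content of the longest transcript was 57.0% to 59.1% in Kmt2b, Kmt2d, Setd1a and Setd1b. In the other members it was 44% to 51.5%, and a trend with GC content alone was not tested. After the length and GC correction Kmt2d was at -0.44 ± 0.10 and Kmt2b at -0.39 ± 0.15, with adjusted p of 0.161 and 0.3 in edgeR.

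The call, but not the size, turned on a library of neither group. Without the second C3a library, which adds to the shared estimate of spread, Kmt2d was at -0.64 ± 0.08 (adjusted p = 2.14e-05 in edgeR), Kmt2b at -0.52 ± 0.12 (adjusted p = 0.0144 in edgeR) and Kmt2a at -0.32 ± 0.08 (adjusted p = 0.033 in edgeR). These 3 of 10 members were called where 3.25% of all genes were. With the C3aRA and oxy-Hb libraries alone Kmt2d (adjusted p = 4.55e-06 in edgeR), Kmt2b, Kmt2a and Setd1a were called, 4 of 10 against 4.43% of all genes. With the length and GC correction and without the second C3a library, Kmt2d (-0.45, adjusted p = 0.000289 in edgeR) and Kmt2b (-0.39, adjusted p = 0.0306 in edgeR) passed and Kmt2a did not (adjusted p = 0.0792 in edgeR). In the authors' deposited table, for which no test is named, Kmt2d had the lowest p of all 22935 genes for C3aRA against oxy-Hb (log2 fold change -0.64, adjusted p = 1.64e-11), and Kmt2b (adjusted p = 0.00339) and Kmt2a (adjusted p = 0.0167) passed as well. Of the 22935 genes 715 had an adjusted p below 0.05 in that comparison. For C3a against oxy-Hb the authors' deposited table ranked Kmt2d 3rd by p (-1.46) and held 5 of the 10 members below 0.05, the fifth being Setd1a. There 508 of the 22935 genes were below 0.05.

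**Figure D4:**
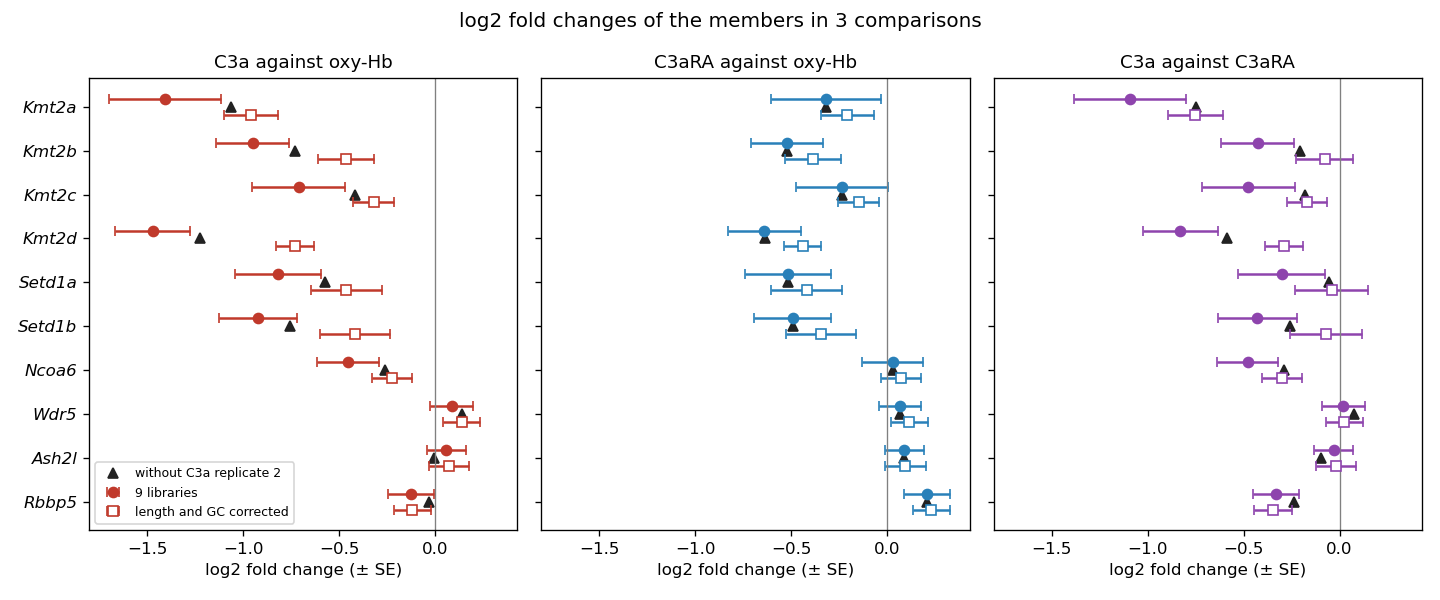
Log2 fold changes of the 10 members (horizontal) in the 3 comparisons; circles with bars are the fit of 9 libraries ± SE, triangles the fit without the second C3a library, and open squares the values after the length and GC correction ± SE. With C3a against oxy-Hb Kmt2d lies at -1.47 uncorrected and -0.73 corrected, and with C3aRA against oxy-Hb at -0.64 and -0.44, while Wdr5 and Ash2l lie between -0.10 and 0.14 in all panels.

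Set directly against C3aRA, C3a gave lower Kmt2a and Kmt2d, and these 2 of 10 members were called where 6.19% of all genes were called and 3.32% called lower. The same C3a libraries, by their lower Kmt2d and Kmt2a counts, led to the choice of the family. Nothing is therefore read from the members' count here either. Kmt2a averaged 55.4 ± 26.4 CPM with C3a and 118 ± 13.0 CPM with C3aRA (SD, n = 3 each), a log2 fold change of -1.09 ± 0.29 (SE). Its adjusted p of 0.0499 in edgeR was just under the threshold. In edgeR this call was lost with total count scaling (adjusted p = 0.0624) and without a count filter (adjusted p = 0.19). Kmt2d averaged 57.5 ± 19.3 CPM with C3a and 102 ± 7.52 CPM with C3aRA (SD, n = 3 each), a difference of -0.83 ± 0.19. Without the second C3a library these were -0.75 and -0.59, both called, and after the length and GC correction Kmt2a kept its call at -0.75 ± 0.14 while Kmt2d lost it at -0.29 ± 0.10. Neither call held in a fit of these 2 groups alone (0 of 10 members, where 0.875% of all genes were called) or without any 1 of the C3aRA libraries. Of the 9 fits that left out a library, Kmt2a was called in 2 and Kmt2d in 5. The share of all genes called without the second C3a library was 12.5%.

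The other enzymes were lower with C3a than with C3aRA by less, from -0.30 ± 0.23 for Setd1a to -0.48 ± 0.24 for Kmt2c, and Ncoa6 by -0.48 ± 0.16. They were smaller without the second C3a library, at -0.06 for Setd1a, -0.18 for Kmt2c, -0.21 for Kmt2b, -0.26 for Setd1b and -0.29 for Ncoa6. After the length and GC correction they were at -0.04 for Setd1a, -0.07 for Setd1b, -0.08 for Kmt2b, -0.17 for Kmt2c and -0.30 for Ncoa6. C3a and C3aRA libraries overlapped for Kmt2b and Setd1a and not for Kmt2c, Setd1b and Ncoa6; in all, 6 members were lower without overlap, where 14.7% of all genes were. Rbbp5 was the sixth, at 68.8, 56.9 and 72.9 CPM with C3a and 86.7, 81.7 and 81.6 CPM with C3aRA (-0.33 ± 0.12), and it was called after the length and GC correction (-0.35 ± 0.10), which made 2 of 10 members with Kmt2a, where 8.22% of all genes were called. Wdr5 (0.02 ± 0.11) and Ash2l (-0.03 ± 0.10) showed no difference beyond their SE, and were at 0.07 and -0.10 without the second C3a library.

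Per kilobase of annotated exon, the core subunits were the most abundant members in every group. With oxy-Hb alone Wdr5 had 20.1 ± 0.99 and Rbbp5 18.4 ± 1.96 CPM per kb (SD, n = 3), within their spread of each other. Ash2l followed with 9.88 ± 0.48 CPM per kb, a level that depends on the length used, since it was 23.9 ± 1.17 by its longest transcript, above Rbbp5 (21.3 ± 2.28). Next came Kmt2a with 8.82 ± 0.66, Kmt2d with 7.99 ± 0.41 and Ncoa6 with 7.67 ± 0.39 CPM per kb, neighbours that did not differ beyond their spread. By the longest transcript Ncoa6 (10.5 ± 0.53) stood above Kmt2a (8.93 ± 0.67) instead. Kmt2c had 5.39 ± 0.54, Kmt2b 3.89 ± 0.19, Setd1a 2.62 ± 0.13 and Setd1b 1.08 ± 0.15 CPM per kb, each below the one before it by more than their SDs. For Kmt2c this also depends on the length used. By the longest transcript it had 7.31 ± 0.73 CPM per kb, within its spread of Kmt2d (8.03 ± 0.41).

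By annotated exon length the order among the long members changed with C3a. Ncoa6 led them with 5.61 ± 1.41 CPM per kb, and Kmt2a (3.33 ± 1.58), Kmt2c (3.30 ± 1.35) and Kmt2d (2.88 ± 0.97) lay within their spread of each other. These spreads include the second C3a library. By the longest transcript Ncoa6 led the long members in every group, at 7.70 ± 1.94 CPM per kb with C3a. Kmt2b had 2.01 ± 0.60, Setd1a 1.49 ± 0.49 and Setd1b 0.571 ± 0.13 CPM per kb, so Setd1b stayed the lowest. With C3aRA Ncoa6 had 7.82 ± 0.85 and Kmt2a 7.08 ± 0.78 CPM per kb, followed by Kmt2d with 5.12 ± 0.38, Kmt2c with 4.58 ± 0.06, Kmt2b with 2.70 ± 0.34, Setd1a with 1.83 ± 0.32 and Setd1b with 0.768 ± 0.07. By the longest transcript Kmt2c stood above Kmt2d instead, at 6.21 ± 0.08 against 5.15 ± 0.38 with C3aRA. With C3a these were 4.47 ± 1.82 and 2.90 ± 0.97, within their spread of each other.

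The remaining subunits of the complexes were set beside the members. Of 12 other COMPASS genes tested none was called with C3a against oxy-Hb in edgeR (unadjusted p below 0.05 for 3, DESeq2 1 call, limma-voom 0), and their median log2 fold change was 0.09. Of all 14146 genes tested 3411 had an unadjusted p below 0.05 in edgeR, DESeq2 called 1353 and limma-voom 625. These counts over all genes also go with the lists below for the same comparison. Hcfc1, a cofactor of the SETD1 complexes and KMT2A with a transcript of 8.26 kb, stood at 92.4 ± 29.8 CPM with C3a and 129 ± 10.8 CPM with oxy-Hb alone (SD, n = 3 each; -0.48 ± 0.19 SE, -0.25 without the second C3a library and -0.13 after the length and GC correction). Cxxc1, which directs SETD1 complexes to unmethylated CpG islands, differed by -0.28 ± 0.13, Tasp1, the protease that cleaves KMT2A, by 0.34 ± 0.11, and Wdr82, a SETD1 subunit, by 0.18 ± 0.10. With C3aRA against oxy-Hb their median was -0.05, with 0 calls in edgeR (unadjusted p below 0.05 for 0, DESeq2 0, limma-voom 0). Dpy30, the smallest core subunit with a transcript of 0.789 kb, was the 1 of 12 called with C3a against C3aRA, where 6.19% of all genes were, higher by 0.44 ± 0.12 (104 ± 16.9 CPM with C3a and 76.9 ± 5.20 CPM with C3aRA, SD, n = 3 each). That call was lost after the length and GC correction (0.32). Psip1, which tethers KMT2A and menin to chromatin, was at 0.31 ± 0.09 in the same comparison without passing. When the second C3a library was left out, 3 of the 12 were called higher, Psip1 (0.30) and Dpy30 (0.30) among them, and Cxxc1 lower (-0.42), where 12.5% of all genes were called.

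Other genes listed with enzymes of the same histone residue were tested next. Of 5 further genes grouped with the lysine 4 methyltransferases none was called in edgeR with C3a against oxy-Hb (unadjusted p below 0.05 for 1, DESeq2 0, limma-voom 0), with a median of -0.37; Ash1l, with a transcript of 11.6 kb, was at -0.41 ± 0.22, Kmt2e at -0.53 ± 0.24 and Setd7 at -0.37 ± 0.13. Ash1l was at -0.13, Kmt2e at -0.23 and Setd7 at -0.21 without the second C3a library, with a list median of -0.21, and the corrected values were -0.11, -0.37 and -0.15. Of 5 genes listed with the lysine 4 demethylases none was called either (unadjusted p below 0.05 for 1, DESeq2 0, limma-voom 0). Their median was -0.13, or -0.03 without the second C3a library. Kdm5a, an eraser of trimethylation with a transcript of 10.9 kb, was at -0.13 ± 0.16, but on the other side of 0 without that library (0.08) and with the correction (0.16). Kdm1b, which removes lower methylation states, was at 0.34 ± 0.15. Of 12 genes for readers of the mark 1 fell, where 3.04% of all genes were called lower: Phf2, a demethylase with a reading PHD finger, by 0.90 on the log2 scale (8.62 ± 2.88 CPM with C3a and 15.99 ± 0.21 CPM with oxy-Hb alone, SD, n = 3 each). Phf2 was also lower with C3a than with C3aRA (-0.86 ± 0.21), and after the length and GC correction it was called there but not against oxy-Hb.

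Among other chromatin regulators, calls with C3a against oxy-Hb were all on the lower side, as were 77.1% of the calls over all genes, and 3.04% of all genes were called lower. Of 18 genes listed with methyltransferases of other histone residues 3 fell. They were Dot1l, the lysine 79 enzyme (-0.92 ± 0.16), Kmt5c, a lysine 20 enzyme of histone H4 (-0.76 ± 0.13), and Nsd3, a lysine 36 enzyme (-0.52 ± 0.12). Kmt5c has a transcript of 2.77 kb, and it and Dot1l kept their calls after the length and GC correction while Nsd3 did not. Of 15 acetyltransferase and bromodomain genes 2 fell, among them Ep300 (-0.79 ± 0.19), which acetylates enhancers and stayed called after the correction. Trrap, a scaffold with a 12.5 kb transcript, was at -1.03 ± 0.26 without passing, and passed both without the second C3a library (-0.72) and after the correction (-0.59). Of 21 remodeller genes 2 fell, Arid1a (-0.74 ± 0.16) and Chd3 (-0.69 ± 0.18), and neither kept its call after the correction. The medians of these 3 lists were -0.15, -0.32 and -0.23, with transcripts of 4.35, 5.42 and 7.44 kb at the median, against 0.0016 and 2.97 kb over all genes. The medians were 0.05, -0.24 and -0.10 without the second C3a library, and 0.05, -0.13 and 0.00094 with the correction. Over all genes the median with the correction was 0.095. Without that library 3, 5 and 3 genes of the lists were called lower and 0, 1 and 1 higher. In that fit 9.55% of all 14613 genes tested were called, 811 lower and 584 higher. With C3aRA against oxy-Hb no gene of the 3 lists was called in edgeR (unadjusted p below 0.05 for 2, 0 and 2 of them, DESeq2 0, limma-voom 0), and the medians were 0.03, -0.16 and -0.01. Leaving out that C3a library, Kmt5c, Smarcb1, a core subunit of BAF remodellers, and Arid1a were called lower there, where 3.25% of all genes were called. Set against C3aRA, C3a gave lower Dot1l (-0.78 ± 0.16), Nsd3 (-0.54 ± 0.12) and Ezh1 (-0.49 ± 0.14), a lysine 27 enzyme. With C3aRA against oxy-Hb Smarcb1 was at -0.47 ± 0.14, Arid1a at -0.41 ± 0.16 and Kmt5c at -0.41 ± 0.13.

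**Figure D5:**
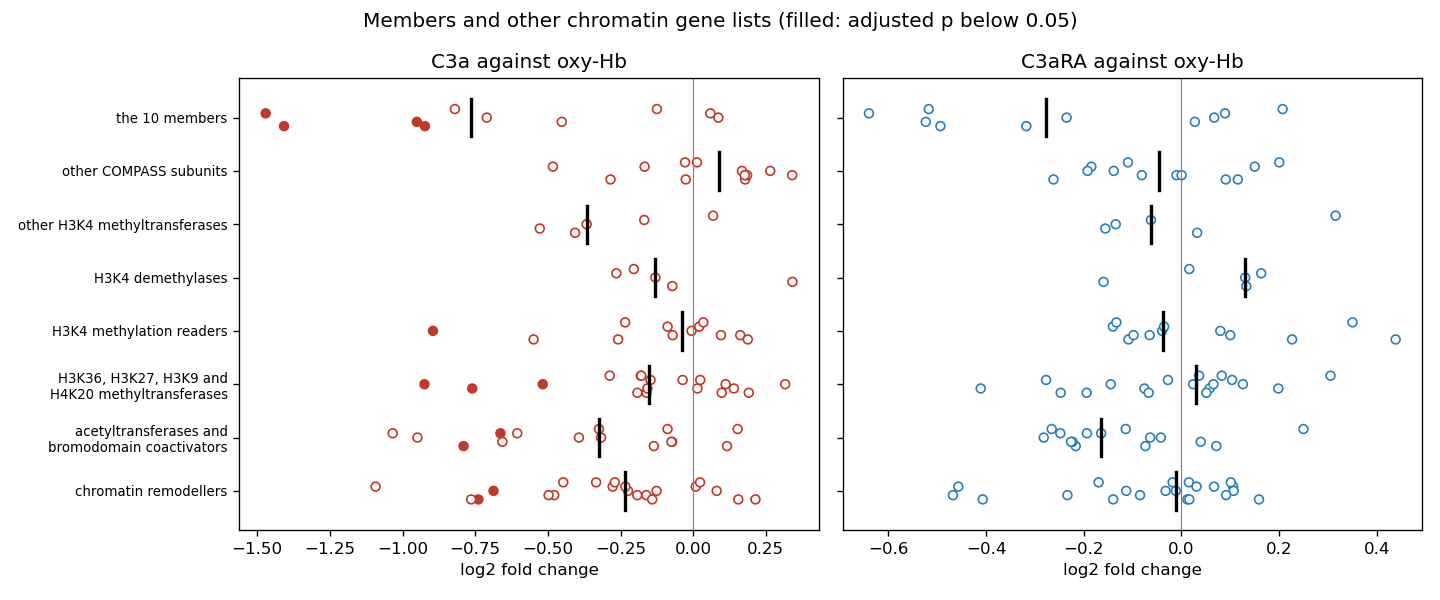
Log2 fold changes of the 10 members and of 7 lists of other chromatin genes (rows) for C3a against oxy-Hb on the left and C3aRA against oxy-Hb on the right; each circle is a gene, filled where the adjusted p is below 0.05 in the fit of 9 libraries, and black bars are list medians. The member medians lie at -0.77 with C3a and -0.28 with C3aRA, and those of the other COMPASS subunits at 0.09 and -0.05.

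Over the 9 libraries the genes most like Kmt2d by Pearson correlation of log2 CPM (1 CPM added, genes of at least 5 CPM) were Mef2d (r = 0.986), a transcription factor first known from muscle, Tet3 (0.984), which oxidises methylated DNA, Prrc2a (0.983), Proser1 (0.98) and Ankrd52 (0.979). They averaged 51.97, 36.3, 87.3, 32.5 and 41.1 CPM with C3a and 94.95, 64.8, 153, 55.5 and 76.2 CPM with oxy-Hb alone, and their longest transcripts ran from 4.47 to 10.9 kb. Among the members Kmt2b was nearest to Kmt2d (0.967), followed by Kmt2a (0.951) and Setd1b (0.95), then Setd1a (0.926), Kmt2c (0.907) and Ncoa6 (0.838); Rbbp5 was at 0.487, Wdr5 at -0.09 and Ash2l at -0.50. Among the genes most like Wdr5 were Qrich1 (0.905), Tagap (0.883), Lipg (0.867) and Ulk4 (0.863). These values share the same 9 libraries, the second C3a library among them, and describe likeness only.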

How the data were processed

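RNA of BV2 cells was sequenced from a SMARTER mRNA library kit, per the labels' protocols. The 2 tables that the authors deposited list raw read counts of 9 libraries for 22935 genes, oxy-Hb columns being identical in both (0 differed), with the authors' own log2 fold change, p-value and adjusted p-value per gene. Per the submitters' processing notes the builds were GRCm38 and mm10. Which aligner, counter, strand setting and test the authors used is not given in the sources used here. Date-like symbols (9) were restored from identifiers.

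Counts were filtered with filterByExpr (minimum count 10; 14146 genes kept), TMM-scaled and fitted in edgeR 4.0.16 (R 4.3.3) with 1 coefficient per group and the robust quasi-likelihood test, with Benjamini-Hochberg adjustment over all tested genes at 0.05. The common biological coefficient of variation was 15.8%. CPM values of genes are TMM-scaled, except marker sums and the floor, which use library totals. P-values reflect only how far these samples differ, which may be technical variation. Exon length, longest transcript and its GC content came from GENCODE M21 (GRCm38), known for 99.9% of tested genes. The correction used splines (4 degrees of freedom) of each library's deviations on both. Scripts were tested on simulated data. Alternatives were other scalings, no filter, DESeq2 1.42.0, limma 3.58.1 (voom), 2-group fits, the replicate number as a block, a threshold of 0.01 and leaving out each library; the correction without C3a replicate 2 was chosen after seeing the data.

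Members and gene lists were chosen with earlier results of these data known. Named genes are all members, up to 4 genes of each list with the lowest p per comparison, and the 5 genes most like Kmt2d and Wdr5; some genes under this rule are not reported here. The count ratios were chosen after values were seen. Members of the lists without a row under their symbol were not analysed here.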

Additional observations from a re-analysis of the deposited data

How the results depend on the processing

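With C3a against oxy-Hb, 558 genes and 4 members were called. Genes called were 1033 without a count filter, 1353 with DESeq2, 99 in the 2-group fit, 997 with the length and GC correction, 1677 with that correction and without C3a replicate 2, and 101 at an adjusted p below 0.01. Members called were 1 in the 2-group fit, 2 with the correction, 2 with it and without C3a replicate 2, and 1 at 0.01. Leaving out 1 library gave 54 to 1638 genes and 1 to 6 members; without oxy-Hb replicates 1 or 2 only Kmt2d was called, and its call held in all 9 such fits. Lower genes made up 77.1% of calls, 95.1% under total count scaling and 32.8% after the correction.

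With C3aRA against oxy-Hb, 0 genes and 0 members were called. Genes called were 8 without a filter, 11 with DESeq2, 603 in the 2-group fit and 1117 with the correction and without C3a replicate 2; members were 4 and 2 in the last pair. Leaving out 1 library gave 0 to 475 genes and 0 to 3 members, both highest without C3a replicate 2. With C3a against C3aRA, 876 genes and 2 members became 1521 genes with DESeq2, 118 and 0 in the 2-group fit, 1953 genes with the correction and without C3a replicate 2, and 88 and 0 at 0.01; total count scaling left 1 member. Leaving out 1 library gave 53 to 1827 genes and 0 to 2 members. Of calls in this comparison 53.7% were lower, and 40.1% after the correction.

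Some fold changes of members without a call changed sign. With total count scaling Wdr5 was at -0.0031 and Ash2l at -0.034 with C3a against oxy-Hb, Ncoa6 at -0.035 with C3aRA against oxy-Hb, and Wdr5 at -0.0082 with C3a against C3aRA. With the correction and without C3a replicate 2, Ash2l was at -0.047 with C3a against oxy-Hb, and Kmt2b at 0.054 and Setd1a at 0.15 with C3a against C3aRA. Leaving out 1 library gave -0.0061 to 0.11 for Ash2l with C3a against oxy-Hb, -0.031 to 0.11 for Ncoa6 and -0.0097 to 0.11 for Wdr5 with C3aRA against oxy-Hb, and -0.031 to 0.11 for Wdr5 and -0.095 to 0.027 for Ash2l with C3a against C3aRA. The cause of these sign changes was not tested, and the fits that left out a library had fewer samples.

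Libraries with the same replicate number had correlated deviations over 0.1 in 2 of 9 pairs (-0.0405 to 0.17). Of the 9 libraries 6 correlated best with their own number. Whether the numbers pair the libraries was not settled by these values, and the main fit did not pair them. With the replicate block 835, 0 and 1210 genes and 5, 0 and 3 members were called in the 3 comparisons; with the block and the correction 1516, 1 and 1496 genes and 4, 0 and 2 members.

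Setd1b, at 99 to 239 counts per library, was the member with the lowest counts, and 3 libraries per group limit the precision of every value.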
